A study of Mus musculus with 2 samples.

Results

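The cells described here were stromal cells of the mouse aorta that carried UMIs of Crabp2, Cst6 and Grem1. A UMI is a molecular tag, so each count stands for 1 captured RNA molecule. A barcode, the label of 1 droplet, was eligible with at least 5000 UMIs and at most 20% mitochondrial UMIs. It was taken as a Crabp2/Cst6/Grem1 cell if these genes had at least 4 UMIs together with at least 2 of the 3 detected. It also had to hold fewer than 5 UMIs of the cartilage genes Acan, Col2a1, Chad and Cytl1, and, per 1000000 of its UMIs, fewer than 1000 of C1qa, C1qb and C1qc and fewer than 20000 of Acta2, Tagln and Myh11. The cells were thus chosen by their measured UMIs of these 10 marker, cartilage and macrophage genes and 3 contractile genes, and nothing about those genes is a finding. The rule found 124 cells of 7766 barcodes in the Kif13b-/- library and 124 cells of 21126 barcodes in the WT library, 248 of 28892 in all.

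The study compared aortas of Kif13b-/- mice with aortas of WT mice by droplet 3' single-cell RNA sequencing, with 1 library of each genotype. Kif13b encodes a kinesin motor protein, and by its title the study asks about this protein in macrophages, in atherosclerosis and in the uptake of dying cells through the receptor MERTK. The title of the first library reads Kif13b-/-, while its genotype label calls the gene knocked down. The sources used here do not state strain, sex, age, diet or how many animals each library pooled, and no lineage label marks where a cell came from. Every comparison of genotypes below is therefore a comparison of 1 library with 1 library, has no replicate check and carries no p-value.

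Grem1 encodes gremlin 1, a secreted protein that binds bone morphogenetic proteins (BMPs) and keeps them from their receptors. Crabp2 carries retinoic acid in the cell to its nuclear receptors, and Cst6 encodes cystatin E/M, a secreted inhibitor of legumain and of cathepsins. Slurp1 is a small secreted protein of the Ly6/uPAR family, Vcam1 is a surface protein to which leukocytes bind, and Ltbp2 is a matrix protein of elastic fibres. Smooth muscle cells of a diseased artery can lose their contractile genes and take on matrix genes, a change called modulation.

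The rule kept 3.03% of 4095 eligible Kif13b-/- barcodes (exact binomial interval 2.52% to 3.60%) and 2.46% of 5031 eligible WT barcodes (2.05% to 2.93%). The ratio of these shares was 1.23, with a counting interval from 0.950 to 1.59, but it was 1.89 with a minimum of 2000 UMIs and 1.82 with at most 10% mitochondrial UMIs. The cells held a median of 28313 UMIs in Kif13b-/- and 20124 UMIs in WT, and in sum 3790690 UMIs and 2623762 UMIs. The rule sets a fixed minimum of marker UMIs, and the median of all eligible barcodes was lower, at 10361 and 9649 UMIs. With each barcode thinned to 5000 UMIs before the rule, it kept 40 Kif13b-/- and 37 WT barcodes, a ratio of shares of 1.33. The shares thus depend on depth and do not measure how common a cell type is. The median mitochondrial share of the cells was 4.77% in Kif13b-/- and 3.04% in WT. All intervals are at 95% and cover counting error only, neither differences between animals nor between cells. The libraries shared 52 barcode sequences, of which 1 belonged to a Kif13b-/- cell of this set and 0 to a WT cell of it. Among the barcodes with the highest doublet scores were 5 Kif13b-/- and 3 WT cells of the set, which were kept. Markers of lymphocytes, granulocytes, adipocytes, mesothelium and red cells each summed to at most 4.22 counts per 1000000 UMIs (CPM) in either library.

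Another 4 groups of eligible barcodes served for comparison, each set by a few genes. The smooth muscle gate held 523 Kif13b-/- and 1114 WT barcodes with at least 20000 CPM of Acta2, Tagln and Myh11. The chondrocyte-like gate held 367 and 1027 barcodes with at least 5 cartilage UMIs. The fibroblast gate held 217 and 175 barcodes with at least 4 UMIs of Pi16, Clec3b and Dpt and 2 of them detected, and the macrophage gate 1786 and 659 barcodes with at least 1000 CPM of the C1q genes.

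The genes of the rule had these values, which are given as a description because they chose the cells. Crabp2 had 185 CPM in Kif13b-/- and 303 CPM in WT cells, and the median cell had 112 CPM and 223 CPM. Cst6 had 204 CPM in Kif13b-/- and 148 CPM in WT cells. Grem1 had 252 CPM in Kif13b-/- and 216 CPM in WT cells, and it was found in 62 Kif13b-/- and 59 WT cells, fewer than the 111 and 114 cells with Crabp2 and the 105 and 106 cells with Cst6. All 3 genes were detected in 30 Kif13b-/- and 31 WT cells, Crabp2 with Cst6 alone in 62 and 65, Crabp2 with Grem1 alone in 19 and 18, and Cst6 with Grem1 alone in 13 and 10. Just inside the threshold, with exactly 4 marker UMIs, stood 9 Kif13b-/- and 17 WT cells, with Vcam1 at 4877 CPM and 4702 CPM. Just outside it, with exactly 3, stood 13 and 35 barcodes, with Vcam1 at 2809 CPM and 3803 CPM. Ltbp2 ran the other way, with 331 CPM in Kif13b-/- and 557 CPM in WT inside, against 574 and 622 CPM outside. Slurp1 had 15.1 and 420 CPM inside, against 105 and 164 CPM outside. Median depths were 23124 and 15140 UMIs inside, against 9922 and 16887 UMIs outside.

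Slurp1, Vcam1 and Ltbp2 were not part of the rule, although they are among the genes for which the set was proposed, so their levels too are a description. Slurp1 had 362 CPM in Kif13b-/- and 520.2 CPM in WT cells, against 48.7 and 44.3 CPM in all other eligible barcodes of these libraries. It stood at 1.71 and 0.749 CPM in the smooth muscle gate, 86.0 and 82.2 CPM in the chondrocyte-like gate and 31.8 and 29.9 CPM in the fibroblast gate. Slurp1 was uneven between cells. It had a UMI in 50.8% of Kif13b-/- and 58.1% of WT cells, or 32.3% and 44.4% with each cell thinned to 5000 UMIs. The same share was 1.15% and 0.539% in the smooth muscle gate, whose median depths were 12592 and 7731 UMIs. In the macrophage gate, at median depths of 8277.5 and 10251 UMIs, it was 42.5% in Kif13b-/- and 3.49% in WT barcodes. Thinned, these shares were 0.382% and 0.359% in the smooth muscle gate and 29.4% and 2.28% in the macrophage gate. The source of the UMIs in that gate was not tested.

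Vcam1 had 4229 CPM in Kif13b-/- and 5121 CPM in WT cells and was found in every cell of both libraries. In other eligible barcodes it had 1183 CPM in Kif13b-/- and 1304 CPM in WT. Ltbp2 had 723 CPM in Kif13b-/- and 617 CPM in WT cells, against 249 and 185 CPM in other eligible barcodes. With cells thinned as for Slurp1, Ltbp2 had a UMI in 93.5% of Kif13b-/- and 83.9% of WT cells. The same share was 60.5% and 46.7% in the chondrocyte-like gate and 65.4% and 42.9% in the fibroblast gate. For Vcam1 it was 98.4% and 99.2% of cells, against 85.6% and 70.1% in the chondrocyte-like and 87.1% and 76.0% in the fibroblast gate. Of the 6 marker genes, 4 were at least 2-fold higher than in the chondrocyte-like gate and 5 than in the fibroblast gate. The 6 include Crabp2, Cst6 and Grem1, which chose the cells, so these counts are a description. Of all 9245 genes, 1.72% and 1.86% were at least 2-fold higher than in these gates in both libraries. The plot of the marker genes by cell shows Vcam1 and Ltbp2 as continuous bands. Grem1 and Slurp1 had no UMI in many cells and ranged from low to high levels in the rest.

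**Figure D1:**
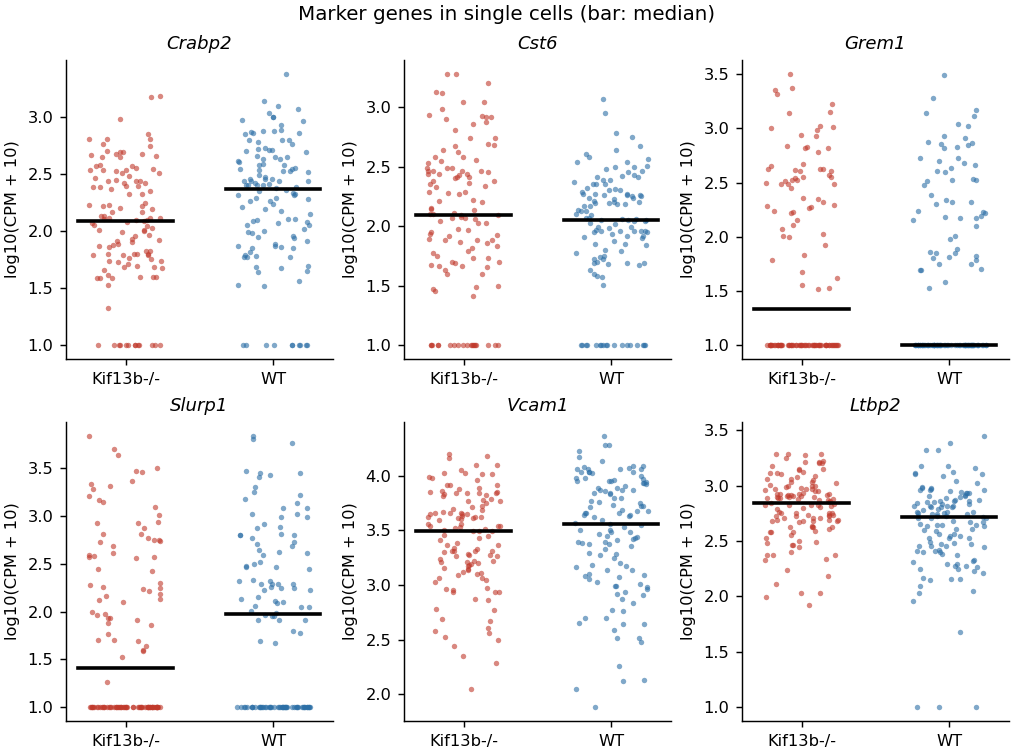
Level of the 6 marker genes in each of the 124 Kif13b-/- cells (left in each panel) and 124 WT cells (right), as log10 of CPM plus 10; the bar is the median cell. Vcam1 was found in all cells, Grem1 in 62 Kif13b-/- and 59 WT cells.

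Slurp1 also differed with the pattern of rule genes. In cells with Cst6 and Grem1 but no Crabp2 UMI it had 3.33 CPM in Kif13b-/- and 52.6 CPM in WT. In cells with Crabp2 and Cst6 but no Grem1 UMI it had 519 CPM in Kif13b-/- and 768 CPM in WT. Across the 124 cells of a library, the Pearson correlation of Slurp1 with Crabp2, on log values, was 0.34 in Kif13b-/- and 0.33 in WT, and with Grem1 it was -0.16 and -0.28. These cells share a library and were chosen by their UMIs of genes that include Crabp2 and Grem1, so the correlations only describe them. Pdgfra, a receptor for platelet-derived growth factor on many stromal cells, ran the other way. It had 270 CPM in Kif13b-/- and 105 CPM in WT cells with Cst6 and Grem1 alone, against 53.8 CPM and 49.2 CPM in cells with Crabp2 and Cst6 alone.

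Beyond the markers, 9245 genes had at least 50 UMIs in these cells. Of them, 158 (1.71%) were at least 2-fold higher than in the other eligible barcodes in both libraries, and 357 (3.86%) were at least 2-fold lower. Genes of secreted protease inhibitors were among the higher ones. Timp1, an inhibitor of matrix metalloproteases, had 3179 CPM in Kif13b-/- and 3323 CPM in WT cells, against 883 and 893 CPM elsewhere. Timp3, a matrix-bound inhibitor of the same enzymes, had 4406 CPM in Kif13b-/- and 6342 CPM in WT cells, against 1244 and 1819 CPM. Stfa3, a stefin of the cystatin superfamily, had 60.1 CPM in Kif13b-/- and 68.2 CPM in WT cells and no UMI in either smooth muscle gate, but it has close copies among the stefin genes with which reads may be shared. Hgf, the growth factor that signals through the receptor MET, had 139 CPM in Kif13b-/- and 194 CPM in WT cells, against 36.6 and 55.4 CPM. Nupr1, a stress-responsive nuclear protein, had 4585 CPM in Kif13b-/- and 4457 CPM in WT cells, against 1497 and 1191 CPM. Vcan, the large proteoglycan versican, had 684 CPM in Kif13b-/- and 608 CPM in WT cells, against 167 and 204 CPM. Gja1, the gap junction protein connexin 43, had 539 CPM in Kif13b-/- and 613 CPM in WT cells, against 174 and 208 CPM. Others of the 25 highest by this measure were Ttc9, Bok, Pla1a, Ano1, which is a calcium-activated chloride channel, Anxa8, F5, which is coagulation factor V, and Cd55, an inhibitor of complement.

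Set against the smooth muscle gate, 1046 genes (11.3%) were at least 2-fold higher and 526 (5.69%) at least 2-fold lower in both libraries. The contractile genes lay low. Of 23 measured genes of a contractile list, 20 were at least 2-fold lower and 0 at least 2-fold higher. The 3 contractile genes of the rule are not on this list, and since the rule capped them the count is a description. Cnn1, calponin, had 18.7 CPM in Kif13b-/- and 18.3 CPM in WT cells, against 1068 and 1014 CPM in the smooth muscle gate. Myl9, the myosin light chain of smooth muscle, had 61.7 CPM in Kif13b-/- and 78.5 CPM in WT cells, against 3405 and 3363 CPM. Itga8, an integrin of smooth muscle, had 46.7 CPM in Kif13b-/- and 49.2 CPM in WT cells, against 1533 and 1449.6 CPM. Myocd, the coactivator that drives contractile genes, was still present at 72.3 CPM in Kif13b-/- and 111 CPM in WT cells, against 455 and 403 CPM.

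Of 24 measured genes of a list for modulated smooth muscle, 18 were at least 2-fold higher than in the smooth muscle gate and 1 was lower. Against the chondrocyte-like gate 3 of the 24 were higher and 1 was lower, and against the fibroblast gate 7 and 4. Of 16 measured genes of an adventitial fibroblast list, 13 were also at least 2-fold higher than in the smooth muscle gate and 0 lower. Spp1, osteopontin, had 36585 CPM in Kif13b-/- and 31149 CPM in WT cells, against 244 and 471 CPM in the smooth muscle gate. Dcn, the small proteoglycan decorin, had 10243 CPM in Kif13b-/- and 9072 CPM in WT cells, against 116 and 166 CPM. Prg4, the lubricating proteoglycan of joints, had 1011 CPM in Kif13b-/- and 1557 CPM in WT cells, against 4.71 and 18.9 CPM. Mmp3, stromelysin 1, had 3264 CPM in Kif13b-/- and 2561 CPM in WT cells, against 16.4 and 35.4 CPM. The set was proposed under the name of modulated stromal cells. Low contractile and high matrix RNA are what that name describes, but fibroblasts have both as well, and with no lineage label the origin of the cells cannot be read from these libraries.

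**Figure D2:**
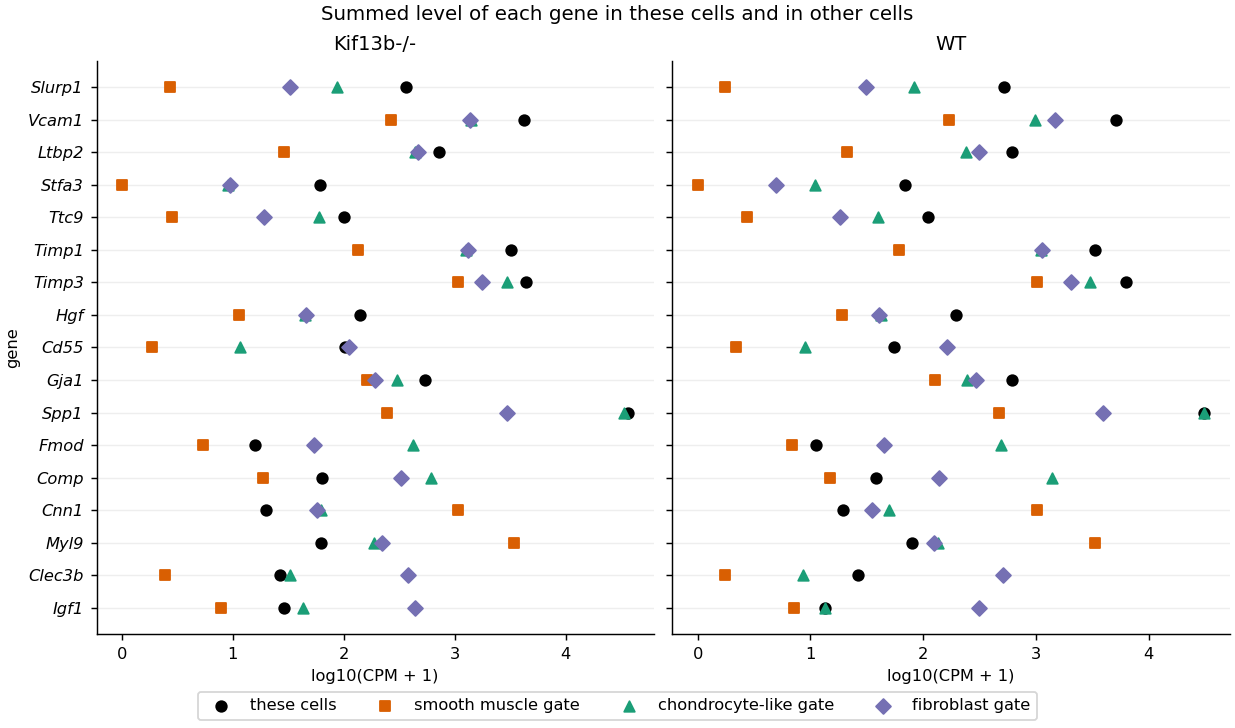
Summed level of 17 genes as log10 of CPM plus 1 in the Crabp2/Cst6/Grem1 cells and in the smooth muscle, chondrocyte-like and fibroblast gates, for the Kif13b-/- library (left) and the WT library (right). Slurp1 was highest in these cells in both libraries, Spp1 was shared with the chondrocyte-like gate, and Cnn1 and Myl9 were highest in the smooth muscle gate.

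Set against the chondrocyte-like gate, the differences were fewer, with 159 genes (1.72%) at least 2-fold higher and 224 (2.42%) at least 2-fold lower in both libraries. Spp1, at 33146 CPM in Kif13b-/- and 30881 CPM in WT chondrocyte-like barcodes, was shared with them. Sox9, the transcription factor of cartilage, had 184 CPM in Kif13b-/- and 211 CPM in WT cells, against 772 and 1504 CPM. Fmod, the cartilage and tendon proteoglycan fibromodulin, had 14.8 CPM in Kif13b-/- and 10.3 CPM in WT cells, against 421 and 485 CPM. Comp, cartilage oligomeric matrix protein, had 62.0 CPM in Kif13b-/- and 37.0 CPM in WT cells, against 614 and 1385 CPM. Of 7 measured genes of a cartilage list without the rule genes, 4 were at least 2-fold lower and 0 higher. Cd55 and Vcan were among the genes on the other side, with Cd55 at 101 CPM in Kif13b-/- and 53.7 CPM in WT cells, against 10.7 and 8.0 CPM. The rule capped 4 cartilage genes, so the low cartilage genes carry no support of their own.

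Set against the fibroblast gate, 172 genes (1.86%) were at least 2-fold higher and 374 (4.05%) at least 2-fold lower in both libraries. Of 16 measured genes of an adventitial fibroblast list, 11 were at least 2-fold lower and 0 higher, and 3 of these 11, Pi16, Clec3b and Dpt, were low by construction because they set that gate. Igf1, insulin-like growth factor 1, had 28.0 CPM in Kif13b-/- and 12.6 CPM in WT cells, against 437 and 313 CPM. Serpinf1, the secreted factor PEDF, had 37.5 CPM in Kif13b-/- and 20.2 CPM in WT cells, against 448 and 468 CPM. Clec3b, which set the fibroblast gate, had 25.6 CPM in Kif13b-/- and 25.2 CPM in WT cells. Dcn and Lum, the proteoglycan lumican, were not among the genes lower than in fibroblasts, with Lum at 7948 CPM in Kif13b-/- and 8106 CPM in WT cells, against 5319.9 and 3842 CPM. Tnfrsf11b, the decoy receptor osteoprotegerin, had 635 CPM in Kif13b-/- and 752 CPM in WT cells, against 133 and 78.3 CPM.

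The genes around gremlin are given by role. Between the genotypes a gene was called higher or lower past a fold of 1.5, which 466 genes (5.04%) passed upwards and 318 (3.44%) downwards in Kif13b-/- over WT cells. A call held if it stood also without the cell with most UMIs of the gene in each library and with all cells weighing alike, and if the counting interval excluded equality. Then 272 genes (2.94%) were higher and 184 (1.99%) lower. The median log2 ratio of all 9245 genes was -0.04.

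Among 9 measured ligands of the BMP and TGF-beta family, 0 were called in either direction, with a median log2 ratio of 0.26. Inhba, a subunit of activin, had 364 CPM in Kif13b-/- and 248 CPM in WT cells, a log2 ratio of 0.55. Bmp2, a ligand that gremlin 1 binds, had 55.7 CPM in Kif13b-/- and 81.9 CPM in WT cells, a log2 ratio of -0.56, but of 0.89 in the cells with no cartilage UMI. Of 13 measured antagonists and latent binding proteins, 1 was higher, 0 were lower, and the median was 0.04. The one called was Ltbp4, a latent TGF-beta binding protein, with 88.4 CPM in Kif13b-/- and 53.4 CPM in WT cells. Grem1 itself differed by a log2 ratio of 0.22. Chrd, chordin, another BMP antagonist, had 20.05 CPM in Kif13b-/- and 20.2 CPM in WT cells. Of 18 measured receptors and SMAD proteins, 3 were higher and 1 lower, of which 1 higher call held. That was Eng, endoglin, with 54.3 CPM in Kif13b-/- and 30.1 CPM in WT cells, where 1 cell held 21.8% of the Kif13b-/- UMIs. Its log2 ratio of 0.85 was 0.54, below the fold, without the 6 cells with over 5000 CPM of macrophage, endothelial or pericyte markers, a setting chosen after seeing the data. Of 13 measured target genes, 1 was higher and 1 lower, with a median of 0.02, and Id3, a target of BMP signals, had 471 CPM in Kif13b-/- and 571 CPM in WT cells.

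Crabp2 was the retinoid gene of the rule. Its log2 ratio was -0.71 (-0.86 to -0.56), although it belonged to the rule and is only described. Rarb, a retinoic acid receptor that is itself a target of retinoic acid, had 22 UMIs in Kif13b-/- and 34 UMIs in WT cells, 5.80 and 13.0 CPM. Of 17 measured genes, 2 were higher and 3 lower, of which Crabp2 is a gene of the rule. The ratio of Rarb was 1.27, on 11 Kif13b-/- and 3 WT UMIs, in cells with all 3 rule genes. Fabp5, a fatty acid and retinoic acid carrier, had 90.2 CPM in Kif13b-/- and 16.8 CPM in WT cells, but 1 cell held 72.2% of its Kif13b-/- UMIs, and without the cells rich in markers of other types the log2 ratio was 0.38. Among 15 measured cystatins and cathepsins, 2 were higher and 1 lower. Lgmn, the protease legumain that Cst6 inhibits, had 239.5 CPM in Kif13b-/- and 221 CPM in WT cells, a log2 ratio of 0.11. Ctsk, the collagen-cutting cathepsin K, had 223 CPM in Kif13b-/- and 340.4 CPM in WT cells, a log2 ratio of -0.61 whose call did not hold.

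Matrix genes mostly lay within the fold. Of 20 measured fibrillar collagens and their processing enzymes, 0 were higher and 1 was lower, and of 13 other collagens 0 were called. Col3a1, collagen III, had 7382 CPM in Kif13b-/- and 8577 CPM in WT cells, and Col1a1, collagen I, had 2584 CPM in Kif13b-/- and 2656 CPM in WT cells. Fn1, fibronectin, had 13590 CPM in Kif13b-/- and 13551 CPM in WT cells. Mgp, matrix Gla protein, an inhibitor of calcification, had 26796 CPM in Kif13b-/- and 27520 CPM in WT cells. Of 20 measured genes of the elastic fibre, 3 were higher and 2 lower. Past the fold also without the top cell and with cells weighing alike were Fbln1, Efemp1 and Ltbp4, higher, and Mfap4, lower. Other settings ended each of these calls. With cells thinned to 5000 UMIs the log2 ratio of Efemp1 was 0.04 and that of Fbln1 0.34, without sub-group C that of Ltbp4 was 0.57 and that of Mfap4 -0.12, and with all 3 rule genes detected that of Mfap4 was 1.43 on 6 UMIs in both libraries. Aspn, asporin, a small proteoglycan that binds collagen, had 25.6 CPM in Kif13b-/- and 62.9 CPM in WT cells, a log2 ratio of -1.29 (-1.67 to -0.93) and of -1.50 without the top cells, but of 0.10 with all 3 rule genes detected. Thbs1, thrombospondin 1, had 294 CPM in Kif13b-/- and 455 CPM in WT cells, a log2 ratio of -0.63 that was -0.26 in the cells with no cartilage UMI.

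Of 22 measured metalloproteases and their inhibitors, 2 were higher, both held, and 0 lower. Mmp13, collagenase 3, had 257 CPM in Kif13b-/- and 75.1 CPM in WT cells, a log2 ratio of 1.77. It was found in 36 Kif13b-/- and 20 WT cells, and 1 cell held 39.4% of the Kif13b-/- UMIs, so that the ratio without the top cells was 1.31. Thinned to 5000 UMIs, 18.5% of Kif13b-/- and 9.68% of WT cells had an Mmp13 UMI, against 27.4% and 7.74% of barcodes in the macrophage gate and 1.15% and 0.359% in the smooth muscle gate. In the chondrocyte-like gate the WT share was the higher one, with 9.26% of Kif13b-/- and 17.7% of WT barcodes. The fibroblast gate had 9.22% and 4.0%. Mmp12, the macrophage elastase, had 25.1 CPM in Kif13b-/- and 1.14 CPM in WT cells and moved with the macrophage markers given below. Timp3 had a log2 ratio of -0.53 and Timp1 of -0.06.

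Growth factors differed in both directions. Ptn, pleiotrophin, a heparin-binding growth factor, had 28.8 CPM in Kif13b-/- and 115 CPM in WT cells, the lowest log2 ratio that the naming rule returned, at -1.997 (-2.33 to -1.68). It was found in 29 Kif13b-/- and 44 WT cells, and its ratio without the top cells was -2.05. In the gates Ptn was low, with 0.856 and 2.25 CPM in smooth muscle and 16.7 and 3.49 CPM in fibroblasts. Fgf7, keratinocyte growth factor, had 45.1 CPM in Kif13b-/- and 91.5 CPM in WT cells, a log2 ratio of -1.02 that was -0.19 in the cells with no cartilage UMI. Of 27 measured growth factor genes, 5 were higher and 2 lower, and of 16 measured Wnt genes 1 was higher and 4 lower. The Wnt genes lower and held were Dkk2, an inhibitor of Wnt signals, at 24.5 CPM in Kif13b-/- and 49.5 CPM in WT cells, Wif1, another, at 16.9 CPM in Kif13b-/- and 30.9 CPM in WT cells, and Rspo2, an enhancer of them, at 8.71 CPM in Kif13b-/- and 33.9 CPM in WT cells. In the cells with no cartilage UMI the log2 ratio of Wif1 was -0.33, below the fold. Gas6, the ligand of the MERTK and AXL receptors, had 362 CPM in Kif13b-/- and 217 CPM in WT cells, a log2 ratio of 0.74 (0.59 to 0.88), with a like value of 0.75 without the top cells.

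The cells were not alike among themselves, and grouping them by their expression gave 4 sub-groups. The genes of the rule were left out of the grouping, and the leading genes are a description, since the same cells made the groups. Sub-group A held 53 Kif13b-/- and 43 WT cells and was led by Mmp13, Slurp1, Tppp3, Lpar1, which is a receptor for lysophosphatidic acid, and Pcolce2, an enhancer of collagen processing. Its mean Slurp1 was 664 CPM in Kif13b-/- and 734 CPM in WT cells. Sub-group B held 41 and 40 cells and was led by Dnah12, Slpi, an inhibitor of leukocyte proteases, and Kansl1l. Immediate early genes, which respond within minutes to stress and to tissue dissociation, summed to 8900 CPM in Kif13b-/- and 7697 CPM in WT cells of B, against 3434 CPM and 4101 CPM in A and 7530.2 CPM and 7735 CPM in C. Sub-group C held 24 and 41 cells and was led by Myh11, Tagln, Ccdc3 and Kcnab1, with Itga8 and Lmod1 also among its 15 leading genes. Contractile genes summed there to 6170 CPM in Kif13b-/- and 7297 CPM in WT, against 3385 CPM and 3651 CPM in A. Its mean Spp1 was 21557 CPM in Kif13b-/- and 13453 CPM in WT cells, against 33953 CPM and 40798 CPM in A.

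Sub-group C made up 19.4% of the Kif13b-/- cells (exact binomial interval 12.8% to 27.4%) and 33.1% of the WT cells (24.9% to 42.1%). These intervals treat cells as independent draws and overlap. Sub-group D held 6 cells of Kif13b-/- and 0 of WT, with a median of 12085 UMIs and 9.08% mitochondrial UMIs. Its mean Cst6 was 1284 CPM and its mean Col1a1 8492 CPM, and it had no Mmp13 UMI. Rgs5, a G protein regulator of smooth muscle and pericytes, had 217 CPM in Kif13b-/- and 434 CPM in WT cells, a log2 ratio of -0.998, but of 0.72 with sub-group C left out and of -0.53 without the 6 cells with most markers of other cell types that are described below, both settings chosen after seeing the data. Of 23 contractile genes, 0 were higher and 4 lower in Kif13b-/-, with a median of -0.18. The rule's contractile genes are not in that count, but the rule capped them. In the cells with all 3 rule genes detected, Myocd had a log2 ratio of 0.12, Mustn1 of 0.039 and Rgs5 of 3.09. Mustn1, a small nuclear protein of muscle, had 274 CPM in Kif13b-/- and 449 CPM in WT cells, and Myocd had a log2 ratio of -0.62.

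**Figure D3:**
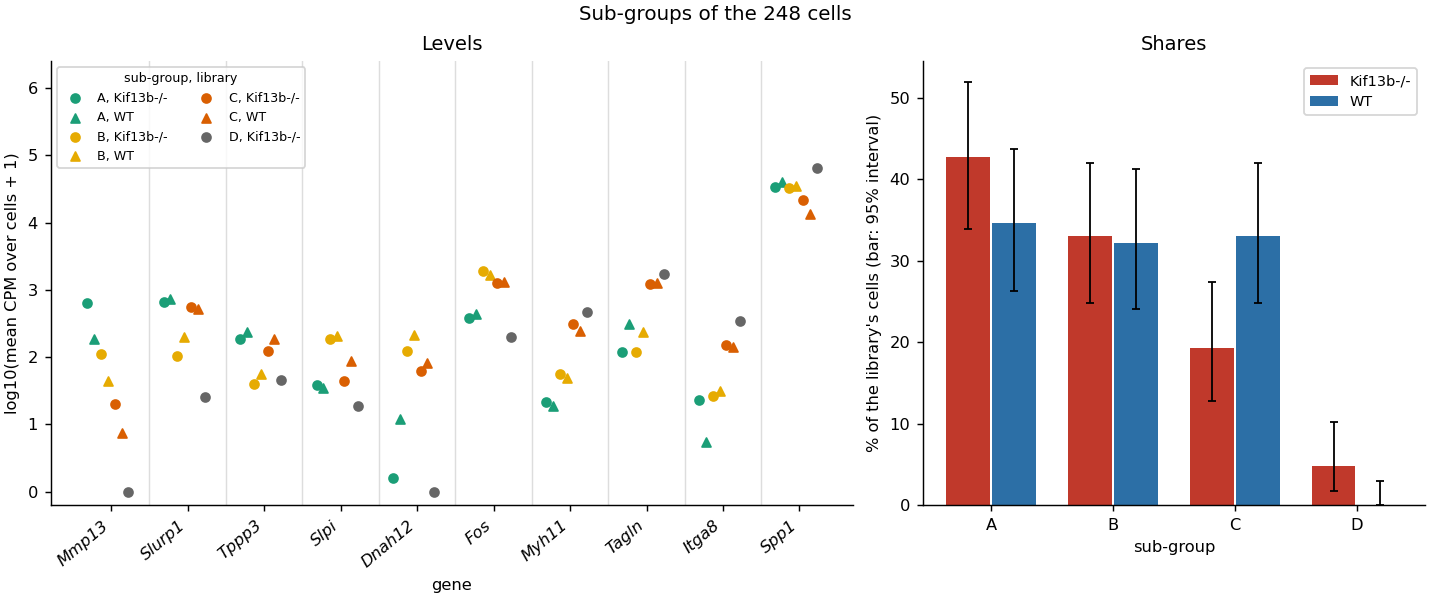
Left, mean level over cells, as log10 of CPM plus 1, of 10 genes in sub-groups A to D (circles Kif13b-/-, triangles WT); right, share of each library's 124 cells in each sub-group with its exact binomial interval. Mmp13 was highest in A, Myh11 and Tagln were high in C and D, and D held 6 Kif13b-/- and 0 WT cells.

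The ratio of variance to mean was taken across cells thinned to 5000 UMIs, where sampling alone gives 1. By the lower of the 2 library values Spp1 ranked first, at 171 in Kif13b-/- and 202 in WT. Mmp3 followed among secreted proteases at 41.4 and 46.6, and Timp3 had 21.8 and 44.5. Vcam1 had 15.6 and 20.5, and Ltbp2 had 2.26 and 2.16. This ratio rises with the level of a gene, so it does not rank genes of unlike level, such as Spp1 and Ltbp2, by unevenness.

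The targeted gene itself was still counted in the library labelled Kif13b-/-. Kif13b had 61.2 CPM in Kif13b-/- and 76.2 CPM in WT cells, a log2 ratio of -0.32 (-0.60 to -0.04), and 42.9 against 71.0 CPM in other eligible barcodes. A 3' count outside a deleted part does not check a deletion, and the sources used here do not state which part was deleted. Mertk had 23.2 CPM in Kif13b-/- and 25.5 CPM in WT cells, a log2 ratio of -0.14 (-0.61 to 0.34). Of 10 measured kinesins 0 were called.

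Among the genes with at least 50 CPM in one library, the naming rule took the 12 highest and the 12 lowest ratios after leaving out 16 genes, such as Lyz2, that another gated class of the same library held at over 10 times the level. Many of the highest rested on single cells. Ly6d, a Ly6 family surface protein, had 326 UMIs in Kif13b-/- cells, of which 1 cell held 91.4%. Pi16, a marker of adventitial fibroblasts, had 307 UMIs in 12 Kif13b-/- cells, of which 1 cell held 61.2%, against 6 UMIs in 4 WT cells. Tslp, an epithelial and stromal cytokine, had 89.4 CPM in Kif13b-/- and 21.3 CPM in WT cells, but its log2 ratio of 2.06 was -0.25 without the top cells. Over all genes, 40 of those called higher and 9 of those called lower had over 50% of the higher library's UMIs in 1 cell. Ide, insulin-degrading enzyme, had 47.5 CPM in Kif13b-/- and 106 CPM in WT cells, a log2 ratio of -1.15, spread over 80 and 99 cells. Kmt5b, a histone methyltransferase, had 40.9 CPM in Kif13b-/- and 96.0 CPM in WT cells, a log2 ratio of -1.23. Outside these cells, Ide had log2 ratios of -0.99, -0.59 and -1.01 in the smooth muscle, chondrocyte-like and fibroblast gates and of -1.02 over all other eligible barcodes, and Kmt5b had -0.55, -0.61, -0.42 and -0.79. Pde7b, Fign and Fgf14 completed the 12 highest with log2 ratios of 1.36, 1.34 and 1.21, and Nr4a3, Tppp3, Ugp2, Filip1 and Sema3c the 12 lowest with -0.85, -0.83, -0.80, -0.75 and -0.72, of which Tppp3 and Sema3c did not hold. In the 30 Kif13b-/- and 31 WT cells with all 3 rule genes detected, 35 of 108 ratios had the other sign, 13 of them ratios of called genes, such as Fabp5 on 6 and 26 UMIs, Cxcl2 on 173 and 261 UMIs and Rgs5 on 180 and 15 UMIs. Pi16 had no UMI in those cells of either library. Syn3, synapsin 3, in whose intron Timp3 lies, had 129 CPM in Kif13b-/- and 248 CPM in WT cells, a log2 ratio of -0.95.

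**Figure D4:**
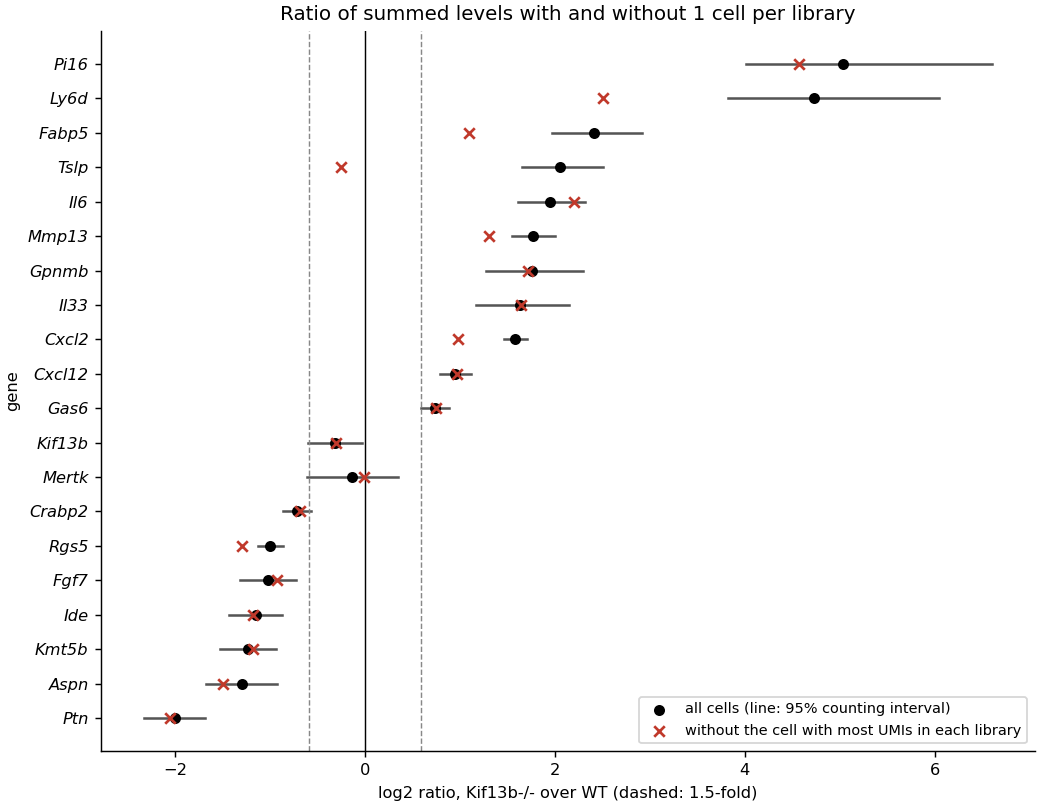
Log2 ratio of the summed level, Kif13b-/- over WT, for 20 genes; points are all cells with the counting interval, crosses leave out the cell with most UMIs of the gene in each library, and dashed lines mark 1.5-fold. Tslp crossed 0 without those cells, while Il6, Il33, Cxcl12, Ptn and Ide stayed beyond the fold.

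Cytokines and chemokines were the list with the most calls among the signalling genes. Of 18 measured, 9 were higher in Kif13b-/- cells, 8 of these held, and 0 were lower. Other settings could still end a call. Lif, one of the 9, had a log2 ratio of 0.26 without likely doublets and 0.33 without sub-group C. It was 0.39 with cells thinned and 0.54 in the cells with no cartilage UMI. The median log2 ratio of the list was 0.66, and 0.24 without the top cells. Il6, interleukin 6, had 120.0 CPM in Kif13b-/- and 30.9 CPM in WT cells, a log2 ratio of 1.95 (1.62 to 2.32), found in 34 and 25 cells. Il33, an alarmin of stromal cells, had 52.5 CPM in Kif13b-/- and 16.8 CPM in WT cells, a log2 ratio of 1.63, found in 30 and 15 cells. Cxcl12, the chemokine that binds CXCR4, had 297 CPM in Kif13b-/- and 154 CPM in WT cells, a log2 ratio of 0.95, and the median cell had 107 and 40.5 CPM. Without the 3 Kif13b-/- and 3 WT cells with over 5000 CPM of macrophage, endothelial or pericyte markers, a setting chosen after seeing the data, the ratio of Cxcl12 was 0.57 and below the fold. Cxcl2, a chemokine for neutrophils, had 751 CPM in Kif13b-/- and 251 CPM in WT cells, a log2 ratio of 1.58. The sum was uneven over cells, since the median cell had 52.4 CPM in Kif13b-/- and 84.9 CPM in WT, and 1 cell held 39.6% of the Kif13b-/- UMIs. Its ratio was 0.98 without the top cells and 0.47 without sub-group C. Cxcl1 and Ccl2, which attract neutrophils and monocytes, did not pass the fold, with log2 ratios of 0.01 and 0.04.

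**Figure D5:**
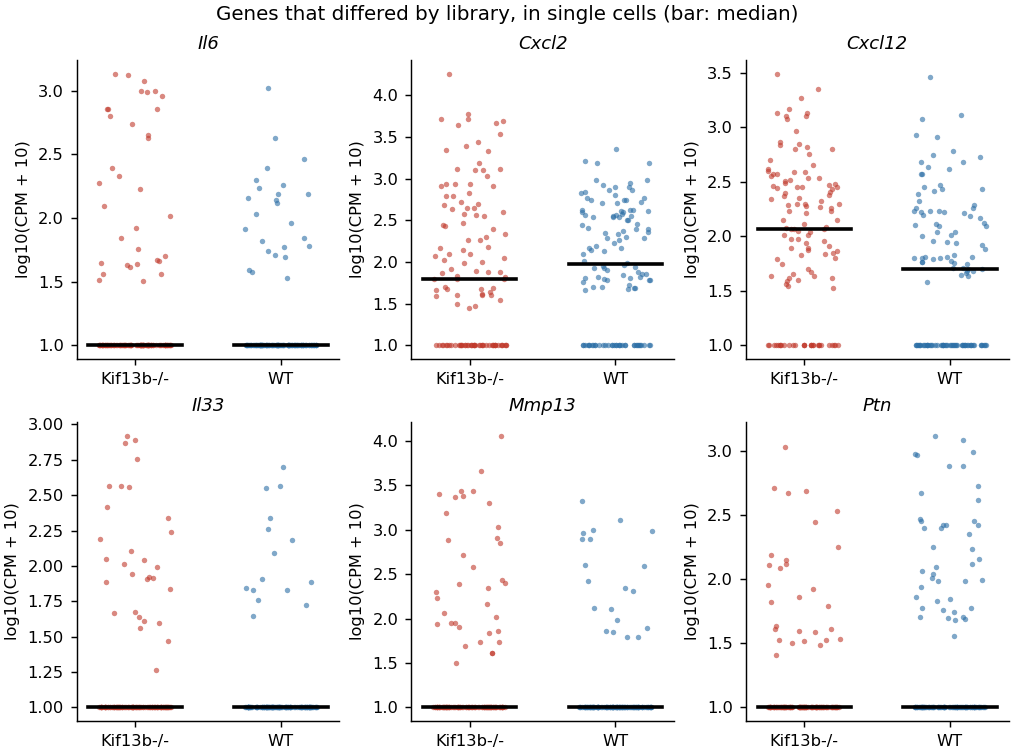
Level of 6 genes in each of the 124 Kif13b-/- cells (left in each panel) and 124 WT cells (right), as log10 of CPM plus 10; the bar is the median cell. Il6, Il33 and Mmp13 had UMIs in 34, 30 and 36 Kif13b-/- cells and 25, 15 and 20 WT cells, and the median cell had more Cxcl12 in Kif13b-/- but less Cxcl2.

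The gates gave the cytokines other ratios. Il6 had log2 ratios of -0.26 in the smooth muscle, 0.96 in the chondrocyte-like and -0.57 in the fibroblast gate, and Cxcl2 had -0.10, 1.16 and -0.13. Il33 had 0.13, 1.56 and -0.20, and Cxcl12 had 0.24, 0.50 and 0.41. Over all genes tested in each gate, 3.62% were higher and 2.57% lower in smooth muscle, 12% and 4.99% in the chondrocyte-like gate, and 6.0% and 4.62% in the fibroblast gate. Levels of Il6 in these cells were below those of the fibroblast gate, at 547 CPM in Kif13b-/- and 811 CPM in WT. The macrophage gate held more of Cxcl2, with 5098 CPM in Kif13b-/- and 14013 CPM in WT barcodes. Thinned to 5000 UMIs, 14.5% of Kif13b-/- and 10.5% of WT cells had an Il6 UMI, against 4.21% and 4.399% of barcodes in the smooth muscle gate and 41.7% and 15.2% in the macrophage gate. The chondrocyte-like gate had 29.2% and 18.4% and the fibroblast gate 59.9% and 57.1%, so only the smooth muscle gate lay below these cells.

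Macrophage markers moved with these genes. Of 9 measured, 8 were higher in Kif13b-/- cells, with a median log2 ratio of 2.33. All 13 markers summed to 593 CPM in Kif13b-/- and 99.9 CPM in WT, while single cells ranged from 0 to 19632 CPM in Kif13b-/- and from 0 to 2496 CPM in WT, with medians of 96.7 CPM and 69.2 CPM. Lyz2, lysozyme, had 286 CPM in Kif13b-/- and 6.86 CPM in WT cells, and 1 cell held 76.2% of the Kif13b-/- UMIs. Mrc1, the mannose receptor, had 10 UMIs in Kif13b-/- and 0 in WT cells. Gpnmb, a lysosomal glycoprotein of macrophages, had 52.0 CPM in Kif13b-/- and 15.2 CPM in WT cells. Endothelial markers summed to 364 CPM in Kif13b-/- and 212 CPM in WT, with 1 Kif13b-/- cell at 5862 CPM, and pericyte markers to 566 CPM and 789 CPM. The part of these markers in the higher cytokine genes was not tested beyond leaving out the cells with over 5000 CPM of them. After that step Il6 had a log2 ratio of 2.03, Il33 of 1.76 and Cxcl2 of 0.92, but the macrophage genes were still higher, Lyz2 by 3.32, Mmp12 by 3.56 and Gpnmb by 1.56. Lyz2 had a UMI in 47 Kif13b-/- and 16 WT cells.

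Mitochondrial genes were higher as well, 5 of 13 past the fold and 0 lower, with a median log2 ratio of 0.48. mt-Atp6, a subunit of ATP synthase, had 11250 CPM in Kif13b-/- and 7305 CPM in WT cells, and mt-Nd3, a subunit of complex I, had 1087 CPM in Kif13b-/- and 494 CPM in WT cells. The 3 gates differed the same way for mt-Nd3, with log2 ratios of 0.85, 1.13 and 1.12. Immediate early genes lay close together, with 1 of 23 higher, 0 lower and a median of -0.07. Of 18 measured cell cycle genes 0 were higher and 6 lower, of which 4 held, while single cells held many of their UMIs, such as 97.4% of the Ube2c UMIs in Kif13b-/- and 54.5% in WT. Surface proteins that bind leukocytes were 2 of 12 higher, Icam1 at 165 CPM in Kif13b-/- and 104 CPM in WT cells and Selp, P-selectin, at 145 CPM in Kif13b-/- and 83.5 CPM in WT cells, while Vcam1 had a log2 ratio of -0.28. The log2 ratio of Icam1 was 0.397 with cells thinned, and that of Selp 0.54 in the cells with no cartilage UMI.

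The bases before the starts of Il6 and Cxcl2 are shown because both genes were among the 12 highest ratios that the naming rule left and both are known targets of NF-kB. The windows are the 250 bases before each start in the RefSeq promoter table (build GRCm38.p6), chr5:30012864-30013113 for Il6 and chr5:90903649-90903898 for Cxcl2, both on the plus strand, and capitals mark matches on either strand to an NF-kB type site, spelled GGG, 2 bases of any kind and TTTCC, or to an AP-1 type site, spelled TGANTCA.
Il6: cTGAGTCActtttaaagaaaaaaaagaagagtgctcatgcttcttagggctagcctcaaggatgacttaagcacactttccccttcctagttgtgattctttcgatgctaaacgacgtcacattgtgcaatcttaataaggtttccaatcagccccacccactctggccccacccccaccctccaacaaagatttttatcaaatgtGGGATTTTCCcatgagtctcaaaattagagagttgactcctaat
Cxcl2: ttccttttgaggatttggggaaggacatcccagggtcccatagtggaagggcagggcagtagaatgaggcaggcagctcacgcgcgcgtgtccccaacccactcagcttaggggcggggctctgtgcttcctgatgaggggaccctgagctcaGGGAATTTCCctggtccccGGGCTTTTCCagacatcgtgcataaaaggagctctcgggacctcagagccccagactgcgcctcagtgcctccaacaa
The NF-kB type letters ended 34 bases before the start of Il6 and, in 2 places, 68 and 87 bases before that of Cxcl2. The AP-1 type letters ended 242 bases before the start of Il6. Of all 32851 promoter windows of this length, 1.41% held the NF-kB type letters and 6.75% the AP-1 type letters. Of the 9 cytokine genes called higher, 8 had a window in the table, of which 2 held the NF-kB type letters and 3 the AP-1 type letters, the others being Cxcl10 and Lif. The gene with no window was Tslp. A match is a description of the letters and was not tested as a binding site.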

How the data were processed

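The deposited files were raw UMI counts per gene and barcode of 1 Kif13b-/- and 1 WT aorta library, made by the authors with Cell Ranger 8.0.1, per the file headers. The build was mm10, per the submitters' processing notes, and the annotation was not given in the sources used here. Of 33696 features, 26 symbols named several.

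Cells were taken by the rule in the report. The members, the gene lists and the tests were chosen with earlier results of these data known. UMIs were summed per library and given per 1000000 UMIs (CPM) with exact Poisson intervals. Log2 ratios used a prior count of 0.5 and exact conditional binomial intervals, and a gene needed 50 UMIs in both libraries together. Genes are named by rule, and further list members and genes were named after their values were seen. The rule took the markers, Kif13b, Mertk, and list members by level or past a fold of 1.5. It took the 12 highest and 12 lowest ratios with at least 50 CPM in one library. Left out of these were 16 genes that another gated class held at over 10 times the level. Also taken were the leading genes against the other barcodes and the gates, and the 15 genes with the highest ratio of variance to mean. Shares with a UMI were also computed on cells thinned to 5000 UMIs. Sub-groups came from Leiden clustering at resolution 0.5. Doublets were scored with Scrublet, and the barcodes with the highest scores were taken as likely doublets. Their share was set at 0.8% per 1000 barcodes of the deposited library. It was therefore larger in WT, with 21126 barcodes, than in Kif13b-/-, with 7766. None was removed except in the setting without likely doublets. The log2 ratio with its interval, the thinning and the ratio of variance to mean were tested on simulated Poisson counts. These counts vary by sampling only, and the other steps were not simulated. Python 3.11.15, numpy 2.4.6, scipy 1.17.1, scanpy 1.11.5 and matplotlib 3.10.9 were used.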

Additional observations from a re-analysis of the deposited data

How the results depend on the processing

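No paired analysis was possible because each genotype has 1 library. The ratio of the shares of these cells was 1.89 with a minimum of 2000 UMIs and 1.82 with at most 10% mitochondrial UMIs. With each cell thinned to 5000 UMIs, 156 genes were higher and 235 lower of 3943 tested, so that the balance turned. The count of genes higher in Kif13b-/- was 85 and 138 with at least 200 UMIs per gene or a fold of 2, where the count lower was 54 and 52. With no minimum on UMIs the counts were 3984 higher and 3020 lower. A resolution of 1.0 gave 8 sub-groups. In the cells with all 3 rule genes detected, 35 of 108 log2 ratios changed sign, 13 of them of called genes. These were Pi16 (-0.45, on 0 UMIs in both libraries, so depth alone sets it), Fabp5 (-2.48), Cxcl2 (-1.04), Igf1 (-0.45, on 5 UMIs in each), Comp (-0.14), Serpinf1 (-0.89), Aspn (0.10), Rgs5 (3.09), Myocd (0.12), Mustn1 (0.039), Tagln (0.56), Rarb (1.27) and Mfap4 (1.43). The ratio of Tslp was -0.25 without the top cells, that of Cd55 was -0.18 with cells thinned, and that of Rgs5 was 0.72 without sub-group C. Over 108 named genes and 17 settings, 1523 of 1836 log2 ratios kept their call or, where not called, stayed within the counting interval, while 64 lost the call, 55 gained one, 178 moved beyond the interval with no call and 16 called ones changed sign. Over all settings 125 ratios changed sign, 109 of them of genes not called. Leaving out sub-group C or the cells with markers of other types was added after seeing the data. The causes were not tested.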
